A study of Mus musculus with 12 samples.

Results

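Ghrelin, its acylating enzyme, its receptor and 3 further genes counted here as markers of epsilon cells were followed by RNA sequencing in sorted cells of the fetal mouse pancreas. The 6 genes, Ghrl, Mboat4, Ghsr, Acsl1, Irs4 and Anpep, were taken by their names from a table of 55417 genes, and all 6 passed the filter on low counts that left 17230 genes for testing. All cells came from Gcg-Timer embryos at E17.5, a strain in which a fluorescent reporter follows Gcg, the gene of glucagon. Dissociated pancreata were sorted by colour. Group N holds the non-alpha cells, group A the green dominant cells, which the labels call newly generated alpha cells, and group B the cells both green and red, which they call more differentiated. Each of the 3 groups holds 4 libraries, numbered 1 to 4, from different mothers. The gates therefore follow the reporter and no gate was set on a ghrelin cell.

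Ghrelin is the peptide hormone of the X/A-like cells of the stomach and of the epsilon cells of the islet. Epsilon cells are most frequent in the fetal and newborn pancreas and become rare in the adult, and in the mouse fetus some ghrelin cells also contain glucagon. The hormone is made from a longer precursor that Pcsk1 cleaves, and Mboat4, also called ghrelin O-acyltransferase, attaches octanoate to a serine near its start, residue 3. Acylated ghrelin activates Ghsr, a Gq-coupled receptor best known from the pituitary and hypothalamus.

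The coding stretch of mature ghrelin is shown because it holds the residue on which Mboat4 acts, and because the counts add up forms of the transcript that differ within it. Of 7 Ghrl transcripts in GENCODE M21 (build GRCm38), 4 hold the whole stretch, 3 of them with 28 codons and 1 with 27. Each is read 5′ to 3′ on the coding strand of chromosome 6, and the capitals mark codon 3 of the mature peptide, the acylated serine.
Ghrl-201: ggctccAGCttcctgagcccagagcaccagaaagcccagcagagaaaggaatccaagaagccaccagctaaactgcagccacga
Ghrl-205: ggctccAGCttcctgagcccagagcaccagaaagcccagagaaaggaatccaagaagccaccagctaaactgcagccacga
The deposited values are sums per gene, so the share of the form with 27 codons was not analysed here.

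The N libraries held 32114272 to 38545699 counts, the A libraries 18168640 to 25873608 and the B libraries 16216935 to 24259164. Markers of alpha cells took 0.0385% of counts in N, 2.39% in A and 5.35% in B on average. The sorted groups also differed in markers of other cells. Acinar markers took 9.33%, 3.62% and 2.17% of counts in N, A and B, erythroid markers 14.5%, 0.161% and 0.0634%, and beta cell markers 0.469%, 1.31% and 0.485%. Mesenchymal markers took 1.46%, 0.718% and 0.0945%, endothelial markers 0.0345%, 0.0153% and 0.00221%, and immune markers 0.0546%, 0.0172% and 0.00357%. Of these, 10 of 10 mesenchymal, 8 of 8 endothelial, 7 of 8 immune and 6 of 9 beta cell markers fell from A to B. None of the 10 acinar and 7 erythroid markers was called there, and of 8 ductal markers 2 fell and 1 rose. Over all genes tested, 9.12% were called lower and 4.63% higher from A to B. No marker on these lists was at 0 in every library of a group. The libraries A1 and A2 had the highest beta cell marker shares in A, at 1.44% and 2.25% against 0.602% in A3 and 0.94% in A4. The part of these other cells in the results below was not tested. Levels are in CPM, a count divided by its library total scaled with a TMM factor, or in deposited TPM where genes are set against each other. A level with ± is a mean and SD over the 4 libraries of a group. Each change is a log2 difference with its standard error (SE), and every adjusted p of a single gene is from the edgeR quasi-likelihood test over all genes tested.

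Ghrl (ENSMUSG00000064177.9, chromosome 6, 113693080 to 113696841 on the minus strand of GRCm39) was highest in the green dominant cells. It stood at 400, 408, 485 and 556 CPM in libraries A1 to A4. In the green and red cells it stood at 124, 132, 241 and 149 CPM in B1 to B4. The non-alpha cells gave 11.8, 21.9, 22.2 and 21.7 CPM in N1 to N4. No library of one group reached into the range of another, and the order A, B, N held within each number. Ghrl rose from N to A (log2 change 4.58, SE 0.27, adjusted p = 3.32e-08), a 23.9-fold difference, and it was also higher in B than in N (log2 change 3.06, SE 0.25, adjusted p = 4.17e-07). From A to B it fell 2.86-fold (log2 change -1.52, SE 0.24, adjusted p = 0.0015), and it was lower in B in 4 of 4 libraries of the same number. In sorted bulk samples, fewer ghrelin cells and less Ghrl RNA per cell cannot be told apart.

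Of the 6 genes, Ghrl alone was called between B and A by the edgeR test without pairing, where 13.7% of all genes tested were called, 4.63% higher and 9.12% lower. Irs4 was also called lower in B with the replicate number as a block in edgeR (adjusted p = 0.021) and in DESeq2 (adjusted p = 0.0254). Ghrl and Mboat4 were called higher and Acsl1 lower in A than in N, in a comparison that called 45.1% of all genes, 23.8% higher and 21.3% lower. With library totals alone, calls from N to A were 8243 higher and 1386 lower, against 4099 and 3664. The same 3 genes moved in the same directions between B and N, where 60.2% were called, 29.7% higher and 30.5% lower. The median change over the 6 genes was -0.36 from A to B, against -0.01 over all genes tested, and 0.93 from N to A, against -0.02. The median from A to B lay between the uncalled Acsl1 (-0.44) and Anpep (-0.28). That from N to A lay between the uncalled Ghsr (1) and Irs4 (0.87), and was 0.44 without A1 and A2. Neither median was tested. The comparisons share libraries and are not independent of each other.

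**Figure D1:**
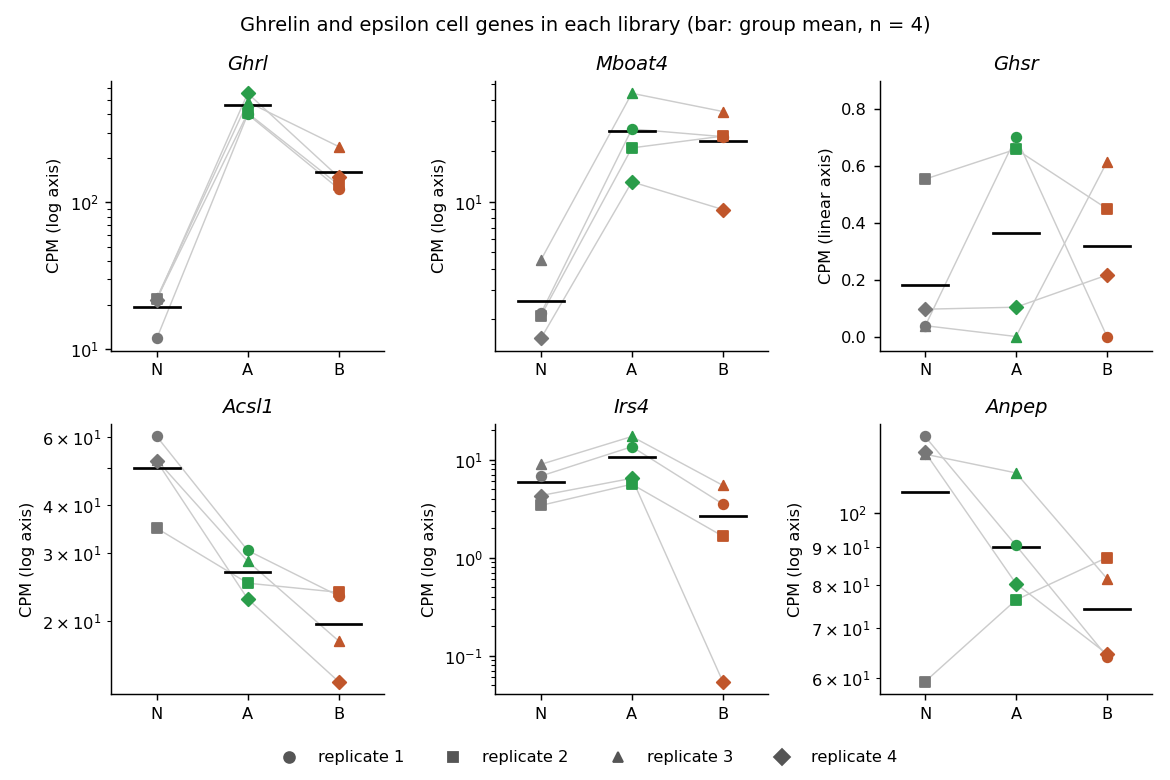
Level of each gene in the 12 libraries, in CPM, by sorted group (log axes except for Ghsr), with a symbol per replicate number, grey lines joining the same number and a bar for the mean of 4. Ghrl separates the 3 groups without overlap, Mboat4 separates N from A and B, and Irs4 separates A from B.

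Of 8 islet hormone genes, 5 rose and none fell from N to A, where 23.8% of all genes were called higher and 21.3% lower. From A to B, where 4.63% of all genes were called higher and 9.12% lower, 1, Gcg, rose and 5 fell. With library totals alone all 8 rose from N to A, and without A1 and A2 none rose and 4 fell from A to B. Among them, Ghrl ranked between the 5th and the 6th by TPM in every A and B library, and between the 7th and the 8th in N. Its deposited TPM, which is scaled to transcript length, was 2983 ± 588 in A, 1051 ± 307 in B and 60.1 ± 21.3 in N. Across all genes it held rank 20 to 32 in A libraries, 49 to 110 in B libraries and 1058 to 2217 in N libraries. The table on the older build mm10 gave 2122 ± 320 TPM in A, 748 ± 260 in B and 59.2 ± 15.8 in N, with the same order. Ghrl made up 2.79% ± 0.993 of the summed TPM of 8 islet hormone genes in A, 0.992% ± 0.319 in B and 0.422% ± 0.225 in N. With Gcg, the gene that the gates follow, left out of the sum, the shares were 4.14% ± 1.97 in A and 3.21% ± 0.895 in B, and the ranges of the libraries overlapped (2.08% to 6.23% against 2.55% to 4.5%).

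**Figure D2:**
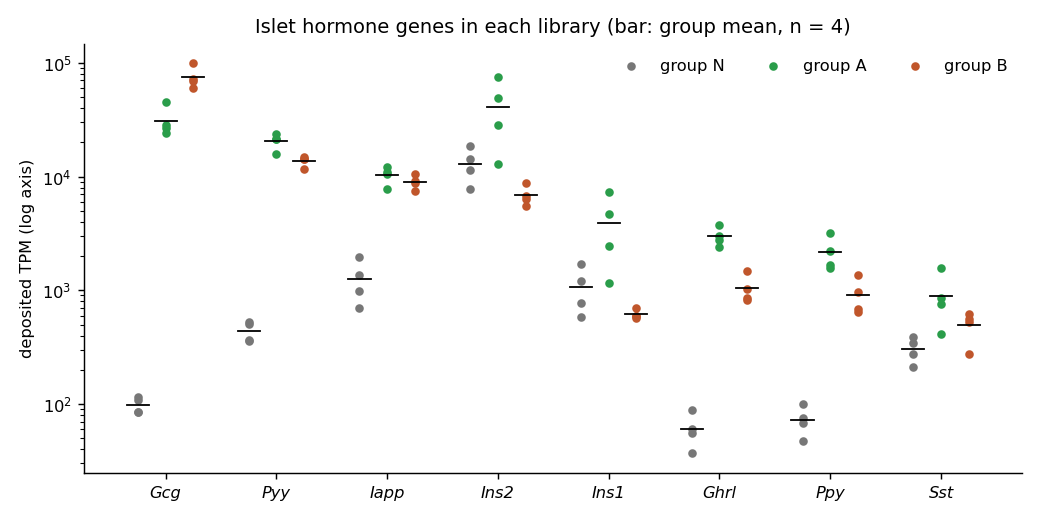
Deposited TPM of 8 islet hormone genes in each library on a log axis, by sorted group, with a bar for the mean of 4. Ghrl lies at 2386 to 3776 TPM in A and 823 to 1492 TPM in B, and its mean in A is below that of Ins1 and above that of Ppy.

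The fall of Ghrl from A to B was set against the other hormones within each library, since a ratio of counts does not depend on how libraries are scaled. For each 100 Gcg counts there were 2.53 to 3.47 Ghrl counts in A libraries, 0.313 to 0.69 in B libraries and 11.8 to 32.7 in N libraries. The 3 groups did not overlap, but the gates follow Gcg, so their order in this ratio was largely set by the sort. The ratio to Gcg was 7.23-fold lower in B than in A (log2 difference -2.85, SE 0.27, exact two-sided permutation p = 0.0286, adjusted p = 0.0714), and Gcg itself rose from A to B (log2 change 1.28, SE 0.26, edgeR adjusted p = 0.00613), a call that was lost without A1 and A2 (1.05, adjusted p = 0.112). Of the 15 ratio comparisons, 6 reached 0.0286, the smallest p that 4 libraries against 4 allow, and none passed once adjusted for their number. All comparisons of the ratio to Gcg were among those 6, and their p says little about Ghrl.

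Against Pyy, the gene of peptide YY, the ratio fell from 0.103 to 0.156 Ghrl counts per Pyy count in A to 0.0516 to 0.0897 in B, with no overlap (log2 difference -0.97, SE 0.21, exact permutation p = 0.0286, adjusted p = 0.0714). Against Ppy, the gene of pancreatic polypeptide, it was 1.27 to 1.93 in A and 0.808 to 1.62 in B, with overlap (log2 difference -0.28, SE 0.26, exact permutation p = 0.4, adjusted p = 0.462). A difference between the changes of Ghrl and Ppy was therefore not shown. Ppy itself fell from A to B (log2 change -1.25, SE 0.25, edgeR adjusted p = 0.00531). Against Sst, the somatostatin gene, the ratio was 0.968 to 4.09 in A, 0.74 to 2.11 in B and 0.0536 to 0.14 in N. The Sst ratio was lower in B than in A in 4 of 4 numbers, but the groups overlapped (log2 difference -0.78, SE 0.57, exact permutation p = 0.229, adjusted p = 0.286). Its difference between A and N was 4.3 on the log2 scale (SE 0.56, exact permutation p = 0.0286, adjusted p = 0.0714).

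Mboat4 (ENSMUSG00000071113.5, chromosome 8, 34582184 to 34592336, plus strand), the acyltransferase without which ghrelin stays unacylated, was higher in both reporter groups than in N. It stood at 2.17, 2.1, 4.51 and 1.54 CPM in N1 to N4. In A1 to A4 the values were 27.1, 20.9, 44.1 and 13.1 CPM. B1 to B4 gave 24.4, 24.5, 34.4 and 8.99 CPM. The ranges of A and B overlapped almost fully, and neither overlapped N. Mboat4 rose from N to A (log2 change 3.35, SE 0.48, adjusted p = 0.000107) and was higher in B than in N (log2 change 3.17, SE 0.47, adjusted p = 7.13e-05). Between A and B it did not pass the test (log2 change -0.19, SE 0.42, adjusted p = 0.826), and the 95% interval of that change, -1.02 to 0.65, holds both a fall and a rise. The sign of this small change turned without A3 (0.18) and without B4 (0.08). In every group Mboat4 was highest in number 3 and lowest in number 4. Libraries numbered 3 were also those with the lowest Y-linked counts, at 0.191 to 0.488 CPM summed over 4 genes against 44.3 to 156 CPM in the other numbers, and the part of this in the Mboat4 level was not tested.

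Set against its substrate, Mboat4 gave 0.0236 to 0.0909 counts per Ghrl count in A, 0.0605 to 0.196 in B and 0.0718 to 0.204 in N. The ratio was higher in B than in A within 4 of 4 numbers, by 1.57-fold to 3.63-fold, and lower in A than in N within 4 of 4 numbers. The mean log2 difference between B and A was 1.35 (SE 0.57, exact two-sided permutation p = 0.0857, adjusted p = 0.129). Between A and N it was -1.28 (SE 0.55, exact permutation p = 0.0571, adjusted p = 0.0952). Neither passed this test, which does not use the pairing. Within numbers the differences varied less, from 0.65 to 1.86 between B and A (SE 0.26 over 4 pairs) and from -1.6 to -0.92 between A and N (SE 0.15). The exact sign-flip test within numbers gave p = 0.125 for both, the smallest that 4 pairs allow, so a difference between the changes of Mboat4 and Ghrl was not shown at this number of pairs. Per length, Mboat4 reached 25.1 ± 12.7 TPM in A against 2983 for Ghrl.

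**Figure D3:**
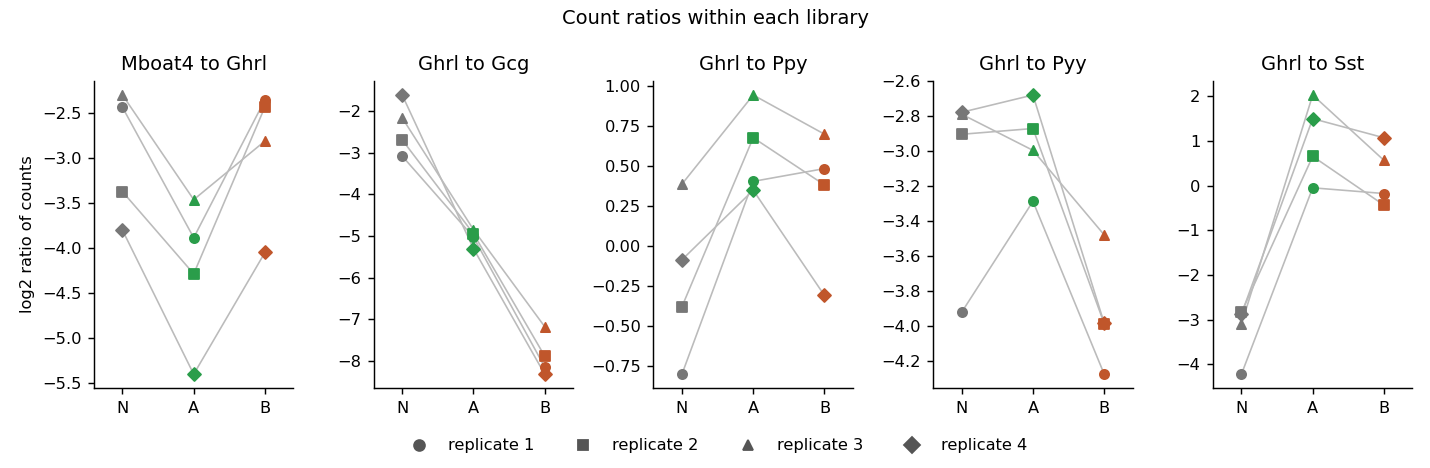
Log2 ratio of counts within each library for 5 pairs of genes, by sorted group, with a symbol per replicate number and lines joining the same number. The ratio of Mboat4 to Ghrl is lowest in A within every number, and the ratio of Ghrl to Gcg falls from N to A to B without overlap.

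Ghsr (ENSMUSG00000051136.2, chromosome 3, 27425500 to 27432159, plus strand), the ghrelin receptor, was close to the limit of what these libraries can show. It had 1, 14, 1 and 3 counts in N1 to N4. In A1 to A4 there were 15, 14, 0 and 3 counts. B1 to B4 held 0, 12, 16 and 4 counts. All groups overlapped, and within each group some libraries held over 10 counts while others held 3 or fewer. A count of 0 allows up to 3 counts, which is 0.133 CPM in A3 and 0.111 CPM in B1. No comparison was called, and the widest 95% interval, that of A against N, ran from -1.37 to 3.36 on the log2 scale (log2 change 1, SE 1.21, adjusted p = 0.523). The sign between B and A was not stable, from -0.16 with all libraries to 2.44 without A1 and A2. Of the receptor's known partners, Mrap2, an accessory protein, stood at 0.506 CPM in N, 0.412 in A and 0.326 in B on average, and Leap2, a peptide antagonist, had 7, 3 and 0 counts in all over the 4 libraries of N, A and B and was not tested. The allowance of 3 counts per library applies to each B library for Leap2.

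Acsl1 (ENSMUSG00000018796.14, chromosome 8, 46924074 to 46989088, plus strand) encodes a long-chain acyl-CoA synthetase, which activates fatty acids for lipid synthesis and oxidation. Its CPM was highest in N and lowest in B. N1 to N4 gave 60.2, 34.9, 52.3 and 51.9 CPM. A1 to A4 gave 30.5, 25.1, 28.6 and 22.9 CPM, and B1 to B4 gave 23.3, 23.8, 17.8 and 14 CPM. Every N library lay above every A and B library, and A and B overlapped. Acsl1 fell from N to A (log2 change -0.9, SE 0.2, adjusted p = 0.00236) and was lower in B than in N (log2 change -1.34, SE 0.2, adjusted p = 6.35e-05). B against A did not pass (log2 change -0.44, SE 0.2, adjusted p = 0.157), although B was lower in 4 of 4 numbers. The fall from N to A depended on scaling between libraries, since with library totals alone it was -0.32 (adjusted p = 0.17), and without these factors the median of all genes moved by 0.57. Deposited TPM of Acsl1 on GRCm39 did not separate the groups in that order, at 11 ± 3.55 in N, 14.1 ± 0.756 in A and 10.6 ± 1.99 in B. The TPM deposited for the older build mm10 had that order in its means, at 19.76 ± 4.46 in N, 15.13 ± 2.57 in A and 10.95 ± 2.56 in B.

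Irs4 (ENSMUSG00000054667.8, chromosome X, 140493994 to 140508259, minus strand) encodes an adaptor that couples the insulin and IGF receptors to PI3 kinase. In N1 to N4 it stood at 6.8, 3.41, 8.94 and 4.3 CPM. A1 to A4 gave 13.5, 5.61, 17.2 and 6.44 CPM. B1 to B4 gave 3.52, 1.65, 5.46 and 0.0541 CPM, the last from 1 count, which lies under the 0.162 CPM that 3 counts make in B4. Every A library lay above every B library, and number 3 was highest in each group. The test did not call the change from A to B (log2 change -1.99, SE 0.72, adjusted p = 0.086), while the fit with the replicate number as a block did (log2 change -2.24, adjusted p = 0.021), as did DESeq2 (-2, adjusted p = 0.0254). Without B4 the direction stayed negative, and over all libraries left out in turn the change ran from -2.58 to -1.59 with no call. From N to A the change was 0.87 (SE 0.69, adjusted p = 0.327), with A higher in 4 of 4 numbers. B against N gave -1.12 (SE 0.71, adjusted p = 0.189), and -1.45 with the block (adjusted p = 0.0404).

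Anpep (ENSMUSG00000039062.16, chromosome 7, 79471551 to 79510807, minus strand) encodes aminopeptidase N, a membrane enzyme that trims peptides at their N-terminus and is abundant on brush borders. Its N libraries gave 127, 59.2, 120 and 121 CPM. A1 to A4 gave 90.5, 76.4, 113 and 80.4 CPM, and B1 to B4 gave 64.1, 87.2, 81.6 and 64.6 CPM. All 3 groups overlapped, with N2 the lowest library of all. Neither A against N (log2 change -0.25, SE 0.22, adjusted p = 0.372) nor B against A (-0.28, SE 0.22, adjusted p = 0.446) passed. B against N lay at the threshold (-0.52, SE 0.22, adjusted p = 0.0507), was called without N2 (-0.73, adjusted p = 0.00119) and had the other sign with library totals alone (0.02). A against N was called without N2 (-0.45, adjusted p = 0.0286). Deposited TPM put Anpep lower in N, at 24.5 ± 10.1, than in A, at 41.3 ± 8.94, so that its direction rests on the scaling.

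**Figure D4:**
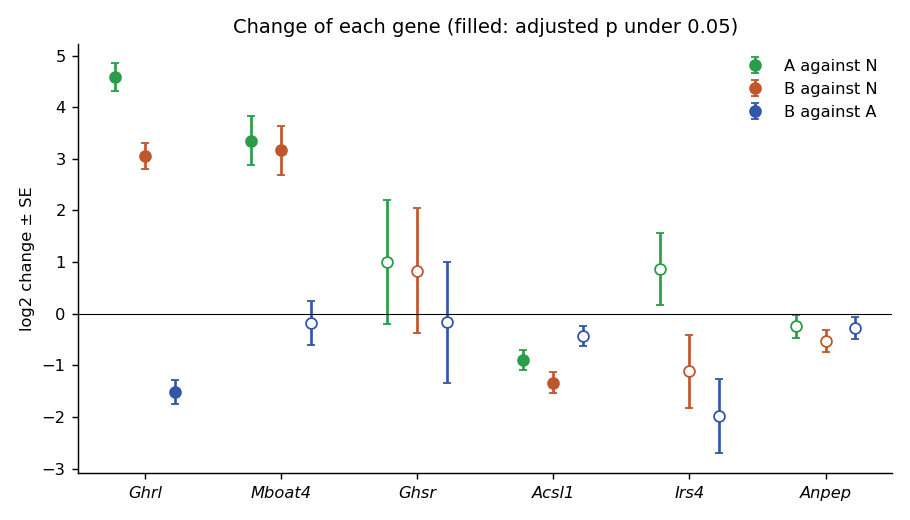
Log2 change of each gene in the 3 comparisons with its SE, from edgeR without the replicate block, filled where the adjusted p is under 0.05. Ghrl is filled in all 3 comparisons, Mboat4 and Acsl1 in both comparisons with N, and Ghsr, Irs4 and Anpep in none.

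The order of levels per length in A was Ghrl, Anpep at 41.3 TPM, Mboat4 at 25.1, Acsl1 at 14.1, Irs4 at 2.74 ± 1.47 and Ghsr at 0.146 ± 0.146. Anpep and Mboat4 overlapped in their ranges there (32.7 to 53.1 and 12.8 to 42.2 TPM), as did Mboat4 and Acsl1 (13.3 to 15.1 TPM). In N the order was Ghrl, Anpep, Acsl1, Mboat4 at 1.12 ± 0.438, Irs4 at 0.706 ± 0.281 and Ghsr. Anpep and Acsl1 overlapped in N, as did Mboat4 and Irs4, and Ghrl and Anpep did not. In B the order was that of A, with 33.1 ± 4.15 TPM for Anpep, 21.7 ± 9.61 for Mboat4, 10.6 ± 1.99 for Acsl1, 0.671 ± 0.591 for Irs4 and 0.125 ± 0.104 for Ghsr. In B only Ghrl and Anpep, and Acsl1 and Irs4, were neighbours without overlap.

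Genes were ranked by how closely their log2 CPM followed that of Ghrl over the 12 libraries, among 10275 genes with a mean log2 CPM of at least 3. These correlations describe 3 group levels more than 12 independent points, and carry no test. Ppy came first (r = 0.979), with 22.2 CPM in N, 311 in A and 131 in B. It was followed by Bbs4, a subunit of the ciliary BBSome (0.971), Fam3a (0.97), Lrpap1, a chaperone of lipoprotein receptors (0.961), Pyy (0.961), Gast, the gastrin gene (0.96), Gnptg (0.958) and Abca7, a lipid transporter (0.958). Thus 3 of the 8 are peptide hormone genes. Gast stood at 0.878 CPM in N, 48 in A and 30.8 in B. Mboat4 correlated with Ghrl at 0.881 (rank 334), Acsl1 at -0.726 and Anpep at -0.317. Gcg (0.873, rank 405) and Iapp (0.86, rank 534) correlated with Ghrl nearly as closely as Mboat4 did.

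Once the group means were taken out, the 5 genes that followed Ghrl most closely were Psph, a serine synthesis enzyme (0.917), Coq9 of ubiquinone synthesis (0.915), Tmem184c (0.912), Ssb, the La RNA-binding protein (0.91), and Tarbp2, a partner of Dicer (0.905), with no hormone gene among them. These correlations are the highest of 10275 over 12 libraries, so selection alone can make them high, and they carry no test. The closest to Mboat4 over all libraries were Fam177a (0.982), Bbln (0.976) and Crnkl1 (0.975). Agpat5, an acyltransferase of phosphatidic acid synthesis (0.982), Gm7901 (0.977) and Slc12a2, a sodium-potassium-chloride cotransporter (0.976), came closest to Acsl1. For Irs4 they were Slc17a5 (0.941), Kyat1 (0.909) and Gdpd1 (0.907), and for Anpep Gart (0.959), Gpaa1 (0.955) and Ide, the insulin-degrading enzyme (0.949). Irs4 itself lay under the floor on mean log2 CPM, with 1 count in B4, and the weight of B4 in its ranking was not tested. Ghsr had too few counts for such a ranking.

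Genes of prohormone cleavage and trimming, not all of which encode enzymes, were listed because ghrelin is cut from a longer precursor. Of 8 tested, 6 rose from N to A and none fell, with Pcsk2 (4.03, SE 0.17, adjusted p = 2.54e-09), Cpe (2.66, SE 0.16, adjusted p = 3.81e-08) and Pcsk1n (3.24, SE 0.27, adjusted p = 9.54e-07) at the smallest p. Their median change was 2.55, against -0.02 over all genes, of which 23.8% were called higher and 21.3% lower. From A to B, where 9.12% of all genes were called lower and 4.63% higher, 1 of 8 fell and none rose. It was Pcsk1, the convertase that cleaves the ghrelin precursor, which stood at 118 ± 23.5 CPM in N, 356 ± 108 in A and 97.4 ± 21.5 in B. It fell by 1.87 on the log2 scale between A and B (SE 0.23, adjusted p = 0.000464). Ghrl and Pcsk1 were thus both highest in A, and the median change of the list from A to B was -0.05. Over all libraries Pcsk1 correlated with Ghrl at only 0.6, rank 3118 among the 10275 genes compared. Beta cell markers were also called lower in B than in A, 6 of 9 of them. The part of beta cells in the fall of Pcsk1 was not tested. DESeq2 also called Pcsk2 and Cpe higher in B (adjusted p = 0.0465 and 0.0299), and the replicate block called Cpe (0.38, adjusted p = 0.0445).

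Acylation needs an activated fatty acid, which acyl-CoA synthetases supply. Of 9 tested, 1 rose and 5 fell from N to A, where 23.8% of all genes were called higher and 21.3% lower. None passed in either direction from A to B (edgeR called 0 of 9, 3 had an unadjusted p under 0.05, and DESeq2 called Acss1 alone). In that comparison edgeR called 13.7% of all genes tested, so a list of this size holds few calls at that share. Acsl3 fell from N to A (-1.03, SE 0.18, adjusted p = 0.000563) and Acsl6 rose (2.26, SE 0.47, adjusted p = 0.00172). Of the 5 that fell, Acsl1, Acsl4, Acsm3 and Acss1 were not called with library totals alone. Of 9 membrane-bound O-acyltransferases, the family of Mboat4, 3 rose and 3 fell from N to A, where 23.8% of all genes were called higher and 21.3% lower. Mboat4, Mboat2 (0.65, SE 0.15, adjusted p = 0.00286) and Lpcat3 rose. Mboat1 (-0.85, SE 0.22, adjusted p = 0.00638), Hhat (-0.71, SE 0.2, adjusted p = 0.0116) and Soat1 fell, all 3 without a call under library totals alone, and Lpcat3 was not called with RLE factors (adjusted p = 0.0889). Mboat4 had the largest change of the 9 tested, and none of the 9 passed from A to B in edgeR, where 1 had an unadjusted p under 0.05, or in DESeq2.

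In the family of the ghrelin receptor and the Gq pathway below it, 7 of 12 genes were tested. From N to A, where 23.8% of all genes were called higher and 21.3% lower, 4 rose and 1 fell. Gpr39, a zinc-sensing relative of Ghsr, rose (1.02, SE 0.26, adjusted p = 0.00679), as did Gnaq (0.84, SE 0.14, adjusted p = 0.000341) and Plcb4 (1.06, SE 0.19, adjusted p = 0.000709), while Plcb3, another phospholipase C, fell (-0.97, SE 0.16, adjusted p = 0.000335). Plcb3 fell again from A to B (-0.73, SE 0.16, adjusted p = 0.0103), a call that was lost without A1 and A2 (adjusted p = 0.119).

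Around Irs4, 10 genes of insulin and IGF signalling were tested. From A to B, where 4.63% of all genes were called higher and 9.12% lower, 1 rose and 3 fell. Irs2, the main insulin receptor substrate of islet cells, rose from 104 ± 9.33 to 159 ± 23 CPM (0.62, SE 0.13, adjusted p = 0.00863). Igf2, a fetal growth factor, fell from 56.2 ± 20.9 to 8.96 ± 5.11 CPM (-2.65, SE 0.38, adjusted p = 0.00106), next to its receptor Igf1r (-0.81, SE 0.18, adjusted p = 0.0108) and Pik3r1 (-0.44, SE 0.13, adjusted p = 0.0452). Mesenchymal cells are a known source of Igf2 in the fetus. Their markers made up 0.718% of all counts in A against 0.0945% in B, and their part in the fall of Igf2 was not tested. Without A1 and A2, Irs2 (adjusted p = 0.101), Igf1r (0.17) and Pik3r1 (0.0823) were not called. From N to A, where 21.3% of all genes were called lower and 23.8% higher, 5 of 10 fell and none rose. With library totals alone 2 fell and 3 rose, and Pik3ca and Pik3r1 changed sign (0.1 and 0).

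Of 9 ectopeptidases around Anpep, 5 rose and 1 fell from N to A, where 23.8% of all genes were called higher and 21.3% lower. Dpp4, which cleaves incretin peptides, rose most, from 39.6 ± 3.24 CPM in N to 285 ± 34.4 in A (2.85, SE 0.12, adjusted p = 2.54e-09). Erap1 (0.95, SE 0.16, adjusted p = 0.000333) and Npepps (0.71, SE 0.14, adjusted p = 0.00109) rose too. From A to B, Lnpep fell (-0.95, SE 0.19, adjusted p = 0.00557) and Enpep rose (0.64, SE 0.2, adjusted p = 0.0463), and both calls were lost without A1 and A2 (adjusted p = 0.0678 and 0.104).

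Receptors and signalling genes known from ghrelin cells of the gut were mostly higher in both reporter groups than in N. Of 10 tested, 8 rose and none fell from N to A, with a median change of 2.46. Over all genes, 23.8% were called higher and 21.3% lower there. Ffar4, a receptor of long-chain fatty acids, rose from 7.76 ± 1.18 to 91.7 ± 12.3 CPM (3.56, SE 0.14, adjusted p = 1.69e-09). Sstr3 (3.56, SE 0.24, adjusted p = 1.08e-07) and Sstr2 (3.14, SE 0.27, adjusted p = 1.09e-06), both somatostatin receptors, rose with it. Other islet cells also express these genes. In B against N, 9 of the 10 were called higher and 1 lower, with a median change of 2.85. Over all genes, 29.7% were called higher and 30.5% lower in that comparison. The median change of the list from A to B was 0.36, while Ghrl fell by 1.52 on the log2 scale. Adrb1, through which noradrenaline releases ghrelin from the mouse stomach, averaged 2.61 CPM in N, 1.15 in A and 0.538 in B (A against N -1.17, SE 0.61, adjusted p = 0.135) and was lower in B than in N (-2.25, SE 0.64, adjusted p = 0.00788). From A to B Sstr2 alone was called in this list by the unblocked test (0.86, SE 0.24, adjusted p = 0.0327), and it was not called without A1 and A2 (adjusted p = 0.19). The replicate block also called Ffar4 (0.39, adjusted p = 0.0306), and DESeq2 called 3 of the 10, all higher in B. Of 17230 genes tested from A to B, the unblocked edgeR test called 797 higher and 1571 lower. The block called 1055 higher and 1732 lower, and DESeq2 1209 higher and 2067 lower.

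Transcription factors of endocrine fate were listed because several of them act on ghrelin cells. Loss of Nkx2-2, Pax4 or Pax6 in the mouse raises the number of ghrelin cells in the fetal pancreas. From N to A, 7 of 9 rose and none fell, against 23.8% of all genes called higher and 21.3% lower. Isl1 (3.88, SE 0.2, adjusted p = 9.32e-09), Pax6 (3.2, SE 0.17, adjusted p = 1.41e-08) and Neurod1 (3.11, SE 0.2, adjusted p = 6.61e-08) were among those that rose. Pax4 stood at 4.82 ± 1.72 CPM in N, 3.35 ± 1.08 in A and 2.11 ± 1.13 in B, with no call from N to A (adjusted p = 0.373) or from A to B (adjusted p = 0.396), and it was lower in B than in N (-1.18, SE 0.47, adjusted p = 0.0425), a call lost with library totals alone (adjusted p = 0.241) and without A1 and A2 (0.0592). From A to B none of the 9 passed in edgeR, 0 had an unadjusted p under 0.05, and only Neurog3, the factor of endocrine progenitors, was called with the replicate block (-1.15, adjusted p = 0.0215). DESeq2 called none of the 9. Over all genes tested, edgeR called 13.7% from A to B.

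**Figure D5:**
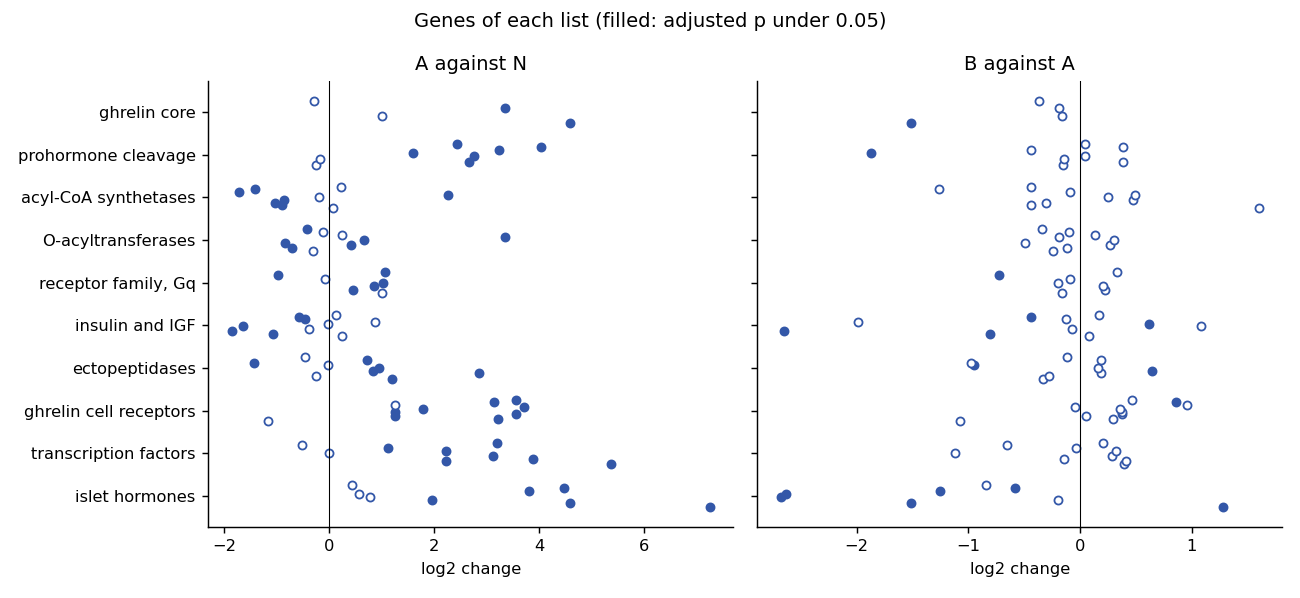
Log2 change of every tested gene of each list from N to A and from A to B, filled where the adjusted p is under 0.05. Receptors, transcription factors and genes of prohormone cleavage lie mostly to the right of 0 from N to A. Most lists are centred near 0 from A to B, with islet hormones to the left.

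Genes that overlap the 6 on the genome held few counts. Gm26982 and Gm44033, on the strand opposite Ghrl, had 41 and 52 counts over all A libraries against 44282 for Ghrl. The sources used here do not say whether counting used the strand.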

How the data were processed

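RNA was extracted with an RNeasy kit and libraries were prepared with a SMARTER mRNA-Seq kit, per the labels. The submitters' processing notes name STAR 2.5.2b, DRAGEN and the builds GRCm38 (mm10) and GRCm39 (mm39). The sources used here do not say which tool made which table. Each table holds, for every library, an estimated count and a TPM per gene, both as deposited by the authors. The GRCm39 table was used and its TPM entered no gene test. Estimated counts were rounded, which altered library totals by at most 0.000286%. Totals lay between 16216935 and 38545699, and intervals cover counting and replicate error only.

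All 12 libraries were fitted by group with edgeR 4.0.16 in R 4.3.3 (filterByExpr, TMM factors, quasi-likelihood test, Benjamini-Hochberg at 0.05). Standard errors come from the F statistic. Ratios of counts (pseudocount 0.5) were compared by exact two-sided permutation over 70 splits, adjusted over 15 comparisons. Alternatives were DESeq2 1.42.0, RLE, upper quartile or no factors, other filters, the groups compared alone, a replicate block, the mm10 counts, and leaving out single libraries in turn. For ratios they were the deposited TPM, other pseudocounts and sign flips within numbers. Leaving out A1 and A2, A3 and B3, or the libraries numbered 4 (lowest in Mboat4) was added after seeing the data. The edgeR test was checked on simulated data in which 65 to 67 genes had each size of change, far fewer than the data called. For B against A it recovered 5.97% of log2 changes of 0.5, 42.4% of 1 and 71.2% of 2. For A against N it recovered 4.55%, 25.4% and 70.8%, and for B against N 1.52%, 30.8% and 72.3%. A missing call at such sizes therefore does not show that a gene was unchanged.

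The 6 genes and the lists were chosen with earlier results of these data known. Examples from a list are up to 4 genes with the smallest p per comparison, or the only one of its kind, and 2 genes that this rule names are not reported here. Genes most like a member are the 8 (Ghrl) or 3 (others) with the highest correlation. Adrb1, Pax4, Mrap2 and Leap2, and list genes named only because their call depended on a setting, were chosen after their values were seen. The replicate numbers were taken as pairs because each preparation was sorted into all groups and Y-linked counts followed the number (112 to 156 CPM in number 1, 0.191 to 0.488 in number 3). Deviations of same-numbered libraries correlated at 0.152 to 0.512 between B and A, 0.076 to 0.367 between A and N and 0.013 to 0.29 between B and N. A library of another number correlated more with A1 than N1 did (0.123 against 0.076). The same held for B2 and N2 (0.108 against 0.013). No pair of libraries agreed within sampling noise.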

Additional observations from a re-analysis of the deposited data

Results flagged for a closer look

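Of 33 groups of 4 values (6 genes and 5 ratios in 3 groups), 4 held a library far from the other 3, and chance alone gives about 5% of groups. Ghrl in N1 stood at 11.8 CPM, below 21.7 to 22.2 CPM in the other N libraries. In the same library the log2 ratio of Ghrl to Pyy counts was -3.92, the lowest in N. Ghsr in N2 stood at 0.554 CPM, from 14 counts, above the other N libraries with 1 to 3 counts. Anpep in N2 stood at 59.2 CPM, below 120 to 127 CPM in the others.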

How the results depend on the processing

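Ghrl kept its direction and its call in all 3 comparisons under all 24 other settings of the fit, at -1.78 to -1.38 from A to B, 4.4 to 5.14 from N to A and 2.8 to 3.6 from N to B. The number of genes called between B and A was 2368 and moved to 631 without A1 and A2 and to 1166 without the libraries numbered 4, both settings chosen after seeing the data. It ranged from 1506 to 2840 with each library left out, and was 1506 without B1 and 1523 without A2. With library totals alone the median of all genes moved by 0.57 (A against N) and 0.54 (B against N), and calls from N to A went from 4099 higher and 3664 lower to 8243 and 1386, and from N to B from 5118 and 5257 to 8263 and 3407. The causes were not tested.

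The replicate block changed the call of Irs4 (-2.24 from A to B, -1.45 from N to B), reversed the uncalled Ghsr (0.032 from A to B), and changed no other call of the 6 genes. DESeq2 also called Irs4 from A to B. Acsl1 lost its call from N to A with library totals alone (-0.32), and Anpep had the other sign there (0.33 in A and 0.02 in B, against N). Anpep was called in B against N with RLE (-0.59), upper quartile factors (-0.6), DESeq2 (-0.59), both filters (-0.58, -0.54), the mm10 table (-0.53), and without N2, A3 or B2 (-0.73 to -0.52). Mboat4 from A to B ranged from -0.442 to 0.184 with a library left out, positive without A3 (0.18) or B4 (0.08). Ghsr from A to B turned positive without A1 (0.36), A2 (0.29) or B1 (0.25) and without A1 and A2 together (2.44), and from N to A it was then -1.61. With a library left out it ranged from -0.69 to 0.361 from A to B. The ratio of Mboat4 to Ghrl in B against N (0.07) reversed without B1 (-0.12), B2 (-0.09), N2 (-0.07) or N4 (-0.21), with a range of -0.208 to 0.448, and that of Ghrl to Pyy in A against N (0.14) without N1 (-0.13). With a library left out no ratio can reach a p under 0.0571, and sign flips none under 0.125, so ratio calls under those settings say nothing about stability.

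Ghsr at 0 to 16 counts and Irs4 at 1 count in B4 rest on few counts. Irs4 had 95, 44 and 142 counts in B1 to B3. B4 held 16216935 counts in all, against 22931668 to 24259164 in B1 to B3. The part of depth in these low counts was not tested.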
